A study of Mus musculus with 26 samples.

Results

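The genes described here are 10 genes of pluripotency and of the early germ line, namely Pou5f1, Nanog, Dppa3, Dppa5a, Prdm1, Prdm14, Tfap2c, Nanos3, Zfp42 and Utf1. They were chosen by name, and all 10 were found among the 55141 genes of the count table. Their RNA was measured in 26 polyadenylated RNA libraries of mouse gastruloids, which are clusters of embryonic stem cells that grow out along an axis in the dish and make trunk and tail tissues. By its title the series is about CTCF, a DNA-binding protein that insulates genes, and Hoxb13. Every line carries the HoxB Del/Del(i9-13) allele, so no line is wild type at HoxB, and the line with nothing further is called Del. Ins carries Ins(CBS5-10) in addition. On top of Ins(CBS5-10), InsDel5to10 has Del(CBS5-10), InsDel7to10 has Del(CBS7-10) and InsDel8to10 has Del(CBS8-10). A pair of clones named InvClone1 and InvClone2 have Inv(CBS5-10) on top of Ins(CBS5-10), and InvDel7to10 has this inversion together with Del(CBS7-10). The 120h stage, in hours after aggregation, has 18 libraries (InvClone1 4, Del 3, Ins 3, InsDel5to10 2, InsDel7to10 2, InvClone2 2, InsDel8to10 1 and InvDel7to10 1). The 144h stage has 6 (InvClone1 2 and Del, Ins, InsDel8to10 and InvDel7to10 with 1 apiece), and 96h and 168h have 1 each, from InvClone1. The labels name each line by its alleles and only InvClone1 and InvClone2 by clone, and they do not say whether replicates came from separate cultures.

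Pou5f1 is the POU-family transcription factor that pluripotent cells need, and it works with Sox2 on composite DNA elements. Nanog is a homeobox factor, Zfp42 a zinc finger protein and Dppa5a an RNA-binding protein of naive pluripotent cells, and Utf1 is a chromatin-bound factor of embryonic stem cells and epiblast. These genes are shut down as epiblast cells leave pluripotency during gastrulation, while primordial germ cells, the precursors of eggs and sperm, keep or switch them on again. Prdm1, Prdm14 and Tfap2c are the transcription factors that specify primordial germ cells. Dppa3 is an early marker of those cells, and Nanos3 is an RNA-binding protein that keeps them alive. Prdm1 and Tfap2c are not restricted to the germ line, since Prdm1 is also made in endoderm and mesoderm derivatives and Tfap2c in surface ectoderm and trophoblast.

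RefSeq promoter windows of 300 bases (250 before and 50 after the start site, build GRCm38.p6) were at hand for 6 of the 10 genes, namely Pou5f1, Nanog, Zfp42, Utf1, Prdm1 and Nanos3. Those of Nanog, Zfp42 and Pou5f1 are printed because they are the most abundant of the pluripotency genes with a window, and their levels are described most fully further on. Both strands were searched for the octamer core ATGCAAA, the letters that POU factors read. They were also searched for the Sox motif CATTGT, the letters read by Sox factors such as Sox2. Matches are in capitals, here all on the strand opposite to the one printed, and every other base is in lower case. The windows lie at chr6:122707239-122707538 on the plus strand for Nanog, chr8:43306960-43307259 on the minus strand for Zfp42 and chr17:35505782-35506081 on the plus strand for Pou5f1.
Nanog: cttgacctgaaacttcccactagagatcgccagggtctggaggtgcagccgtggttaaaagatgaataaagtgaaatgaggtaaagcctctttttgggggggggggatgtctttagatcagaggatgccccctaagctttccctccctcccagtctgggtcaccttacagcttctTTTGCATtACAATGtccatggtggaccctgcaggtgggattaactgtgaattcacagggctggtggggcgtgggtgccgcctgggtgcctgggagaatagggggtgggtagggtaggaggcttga
Zfp42: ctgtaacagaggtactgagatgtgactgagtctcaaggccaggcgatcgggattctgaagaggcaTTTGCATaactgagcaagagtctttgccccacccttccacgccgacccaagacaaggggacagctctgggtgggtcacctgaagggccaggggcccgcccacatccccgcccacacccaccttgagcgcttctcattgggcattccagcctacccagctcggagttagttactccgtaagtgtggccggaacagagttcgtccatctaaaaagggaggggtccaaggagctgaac
Pou5f1: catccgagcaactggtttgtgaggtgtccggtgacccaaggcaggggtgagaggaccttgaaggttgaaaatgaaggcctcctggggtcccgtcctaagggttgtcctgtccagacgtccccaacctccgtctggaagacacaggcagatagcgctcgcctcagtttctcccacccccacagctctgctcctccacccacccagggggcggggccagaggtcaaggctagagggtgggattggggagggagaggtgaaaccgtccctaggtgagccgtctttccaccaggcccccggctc
In the Nanog window printed the octamer core lay at positions -75 to -69 from the start site and the Sox motif at -67 to -62, side by side without overlap. A second Nanog window, with another start site, held the octamer core at -151 to -145 and the Sox motif at -143 to -138. In the Zfp42 window the octamer core lay at -185 to -179, with no Sox motif. The Pou5f1 window printed held neither, and a second Pou5f1 window in the table held a Sox motif at -158 to -153. The Utf1 and Prdm1 windows held neither as well, and that of Nanos3 held a Sox motif at -123 to -118. Of all 32851 promoter windows in the table, 4.63% held the octamer core, 12.6% the Sox motif and 0.813% both, so the pair in Nanog is uncommon among promoters. These matches are letters in a window and not measured binding.

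The 10 genes lie apart from the edited locus, with none on chromosome 11, where Hoxb9 is listed. In the deposited coordinates (mm10) Pou5f1 spans chr17:35506018-35510772, Dppa5a chr9:78367052-78368177, Prdm1 chr10:44437177-44458748 and Tfap2c chr2:172549593-172558622. Nanog (chr6:122707489-122714633) and Dppa3 (chr6:122626410-122630272) are neighbours on chromosome 6, 77.2 kb apart. The other genes are Zfp42 at chr8:43295063-43306980, Nanos3 at chr8:84173733-84176552, Prdm14 at chr1:13113457-13127163 and Utf1 at chr7:139943789-139945112. Total counts per library ran from 18746411 to 37716547, so 3 counts, the limit that a count of 0 allows, stood for 0.0778 to 0.165 CPM, the counts scaled to a common library total after TMM adjustment. Such limits, and all Poisson and ratio intervals below, cover counting error only. Libraries carry 4 names (ISML_first, ISML_second, ISML_third and TruSeq_second), and replicates 2 and 3 of InvClone1 at 120h are the TruSeq_second libraries, made with another kit. InvClone1 replicate 2 at 144h stood apart with 0.0864% of counts on mitochondrial genes, against a median of 0.976% over the 26 libraries.

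At 120h these were low genes, and per length Dppa5a stood first. In deposited FPKM, which divide by transcript length, Dppa5a ran from 0 to 25.3 over the 18 libraries at 120h (median 5.04). Pou5f1 followed with 0.101 to 4.62 FPKM (median 1.86) and Prdm1 with 0.249 to 2.21 FPKM (median 1.05). Medians were 0.624 FPKM for Nanog, 0.354 for Zfp42, 0.337 for Tfap2c, 0.256 for Utf1, 0.155 for Nanos3, 0.0434 for Dppa3 and 0.0274 for Prdm14. Dppa5a was above Pou5f1 in FPKM in 22 of all 26 libraries. In reads, Dppa3 never passed 12 counts, Prdm14 13 counts and Nanos3 19 counts in a library, and Dppa3 was at 0 in 9 libraries and Prdm14 in 8. The 3 genes most tied to primordial germ cells were thus under 1 CPM in all 26 libraries, so their differences could hardly be resolved at this depth. In a bulk sample fewer cells that express a gene and less RNA per cell cannot be told apart.

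By line at 120h, InvClone2 and InvClone1 had the highest mean Pou5f1 and Nanog and InsDel7to10 the lowest, but most neighbours in the order overlapped. Pou5f1 measured 4.21 and 8.70 CPM in InvClone2 and 3.88, 7.46, 7.63 and 5.14 CPM in the 4 InvClone1 libraries. It measured 2.97, 5.17 and 1.31 CPM in Del and 2.29, 1.80 and 6.43 CPM in Ins. In InsDel5to10 it measured 0.600 and 8.10 CPM, in InsDel7to10 0.549 and 0.0953 CPM, in InsDel8to10 1.07 CPM and in InvDel7to10 0.949 CPM. InvClone1 ran from 3.88 to 7.63 CPM across its libraries of 3 names, while Del, Ins and InsDel5to10 each held high and low libraries. The libraries of InvClone2, InvClone1, InsDel5to10, Ins and Del overlapped with their neighbours in this order. The 2 libraries of InsDel7to10 lay below all other lines, narrowly so for the 0.549 CPM beside 0.600 CPM in InsDel5to10.

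Dppa5a showed the widest range in CPM of the 10 genes at 120h. It measured 9.88 and 21.0 CPM in InvClone2, 16.3, 13.2, 8.09 and 6.45 CPM in InvClone1, 2.97, 11.3 and 1.67 CPM in Del, and 2.22, 1.99 and 9.95 CPM in Ins. InsDel5to10 had 0 and 25.3 CPM, InsDel7to10 0.878 and 0 CPM, InsDel8to10 0.7105 CPM and InvDel7to10 0.570 CPM. The highest and one of the lowest Dppa5a values at 120h therefore came from the same line. Its 0 in InsDel5to10 replicate 1 allows up to 0.150 CPM, and that in InsDel7to10 replicate 2 up to 0.143 CPM.

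Nanog and Zfp42 were high and low in the same libraries as Dppa5a in Del, InsDel5to10, InsDel7to10 and InvClone2. Nanog measured 3.38 and 4.00 CPM in InvClone2, 3.69, 3.90, 2.26 and 2.28 CPM in InvClone1, 1.33, 3.67 and 0.163 CPM in Del, and 0.929, 0.306 and 2.11 CPM in Ins. In InsDel5to10 it measured 0.1001 and 5.02 CPM, in InsDel7to10 0.439 and 0 CPM, in InsDel8to10 0.400 CPM and in InvDel7to10 0.285 CPM. Zfp42 ran from 0 to 2.66 CPM, with its highest value in InsDel5to10 replicate 2 (62 counts) and 2 counts in InsDel5to10 replicate 1. Utf1 reached 1.92 CPM in InvClone2 replicate 2 and was at 0 in InsDel5to10 replicate 1 and InsDel7to10 replicate 2.

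Of the germ cell factors, Prdm1 was the most abundant in CPM and followed another order. Its line means at 120h lay between 5.93 CPM (InvClone2) and 9.35 CPM (InvDel7to10) in 7 of the 8 lines, all overlapping with their neighbours. InsDel7to10 had the lowest mean, 2.11 CPM, from 2.74 and 1.48 CPM. Its libraries were not below all others, since Del replicate 1 had 2.62 CPM and Ins replicate 1 had 2.57 CPM. By library name, Prdm1 ran from 2.57 to 8.48 CPM in the 4 ISML_first libraries, from 6.53 to 13.7 CPM in the 5 ISML_second libraries at 120h, from 3.73 to 5.73 CPM in the 2 TruSeq_second libraries, and from 1.48 to 10.9 CPM in the 7 ISML_third libraries. These ranges overlap in part, and the names hold different lines, TruSeq_second only InvClone1. Tfap2c measured 1.74 and 4.66 CPM in InvClone2, 1.48, 1.51, 1.89 and 1.70 CPM in InvClone1, 1.33, 2.31 and 0.980 CPM in Del and 0.608, 0.612 and 1.55 CPM in Ins. It measured 0.3002 and 2.19 CPM in InsDel5to10, 0.384 and 0.381 CPM in InsDel7to10, 0.888 CPM in InsDel8to10 and 1.09 CPM in InvDel7to10. Tfap2c was thus the steadiest of these genes in InvClone1, and its widest split was that of InsDel5to10.

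**Figure D1:**
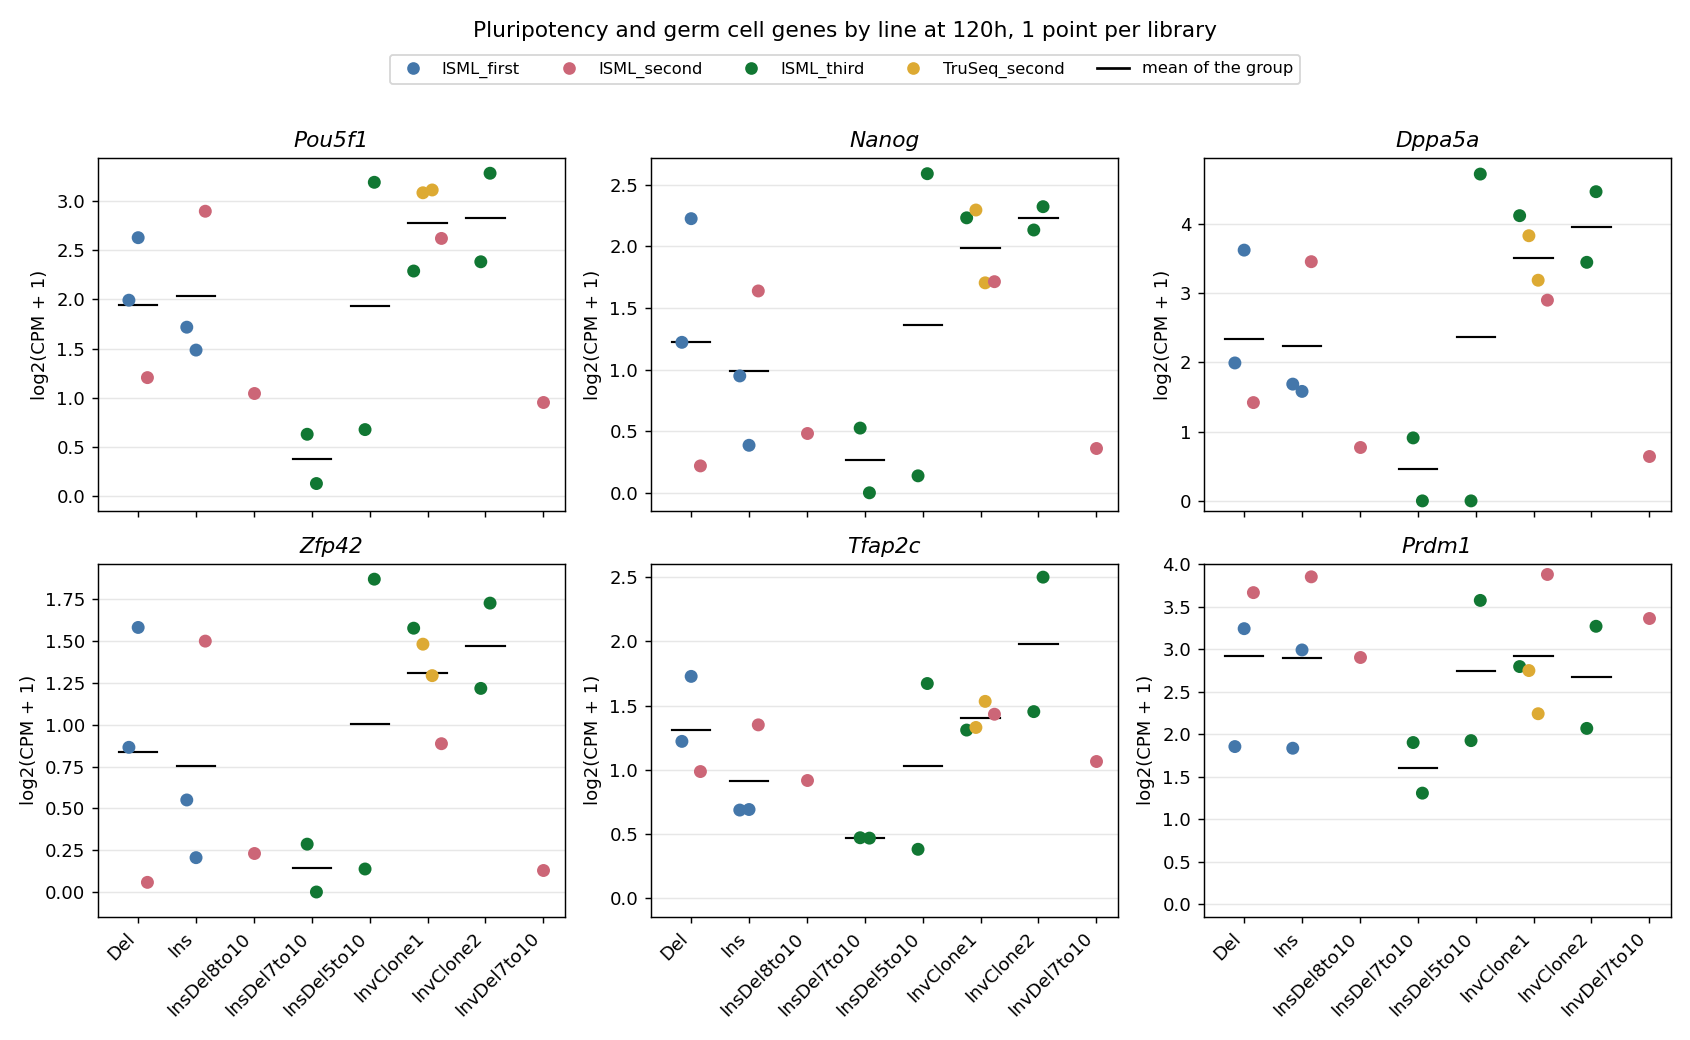
Levels of Pou5f1, Nanog, Dppa5a, Zfp42, Tfap2c and Prdm1 as log2(CPM + 1) in the 18 libraries at 120h, by line (horizontal axis), coloured by library name, with a bar at the mean of each line that has 2 or more libraries. The 2 InsDel5to10 libraries sit at opposite ends for Dppa5a (0 and 25.3 CPM), while the 4 InvClone1 libraries span 6.45 to 16.3 CPM.

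The spread between replicates of a line was the main feature of these genes. In InsDel5to10, with both libraries named ISML_third, Pou5f1 had 12 counts in replicate 1 and 189 in replicate 2, a ratio of CPM of 13.5 (95% counting interval 7.55 to 26.6). Nanog had 2 and 117 counts, a ratio of 50.1 (13.6 to 419), and Zfp42 2 and 62 counts, a ratio of 26.6 (7.05 to 224). Dppa5a had 0 and 590 counts and was at least 169-fold higher in replicate 2, taking 3 counts in replicate 1 as the floor. Nanog, Zfp42 and Dppa5a were thus at 2 counts or fewer in one InsDel5to10 library and at their highest 120h value in the other. The germ cell factors differed in the same direction, with a ratio of 7.28 (3.13 to 20.8) for Tfap2c and 3.90 (2.91 to 5.31) for Prdm1, and Prdm14, with 0 and 13 counts, was at least 3.71-fold higher in replicate 2.

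All 10 genes were higher in InsDel5to10 replicate 2 than in replicate 1, where 52.2% of the 13283 genes averaging 1 CPM or more were higher. The shares of genes given next are over this same set, which leaves out Utf1, Nanos3, Dppa3 and Prdm14. In InvClone2 all 10 were also higher in replicate 2, against 49.5% of genes, but by less: 2.07 times for Pou5f1 (1.62 to 2.67), 2.13 times for Dppa5a (1.82 to 2.51), 2.68 times for Tfap2c (1.85 to 3.98) and 1.182 times for Nanog (0.867 to 1.62). In InsDel7to10, 9 of the 10 were lower in replicate 2 and 1 was level at 0 in both, while 49.2% of genes were higher there. Replicate numbers only name libraries, and no order among them is meant. In Del the ISML_first replicate 2 exceeded replicate 1 by 3.80 times for Dppa5a (2.92 to 4.97) and 2.76 times for Nanog (1.83 to 4.25). In Ins the same pair differed by 0.898 times for Dppa5a (0.609 to 1.32) and 0.329 times for Nanog (0.129 to 0.749).

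Pooled over the 7 groups with 2 or more libraries (18 libraries), the pooled SD of log2(CPM + 1) was 1.30 for Dppa5a, 0.85 for Nanog, 0.83 for Prdm1, 0.76 for Pou5f1, 0.64 for Zfp42 and 0.43 for Tfap2c. Over the 13283 genes averaging 1 CPM or more the median pooled SD was 0.27, and over these 6 genes it was 0.80. Dppa5a stood at the 99.61 percentile of those genes, Nanog at 97.08, Prdm1 at 96.88, Pou5f1 at 95.64, Zfp42 at 92.51 and Tfap2c at 79.48. Low counts add sampling noise to each of these SDs. For Pou5f1, Nanog, Dppa5a, Zfp42, Tfap2c and Prdm1 the largest group SD was that of InsDel5to10, which reached 3.34 for Dppa5a against 0.56 in the 4 InvClone1 libraries at 120h.

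**Figure D2:**
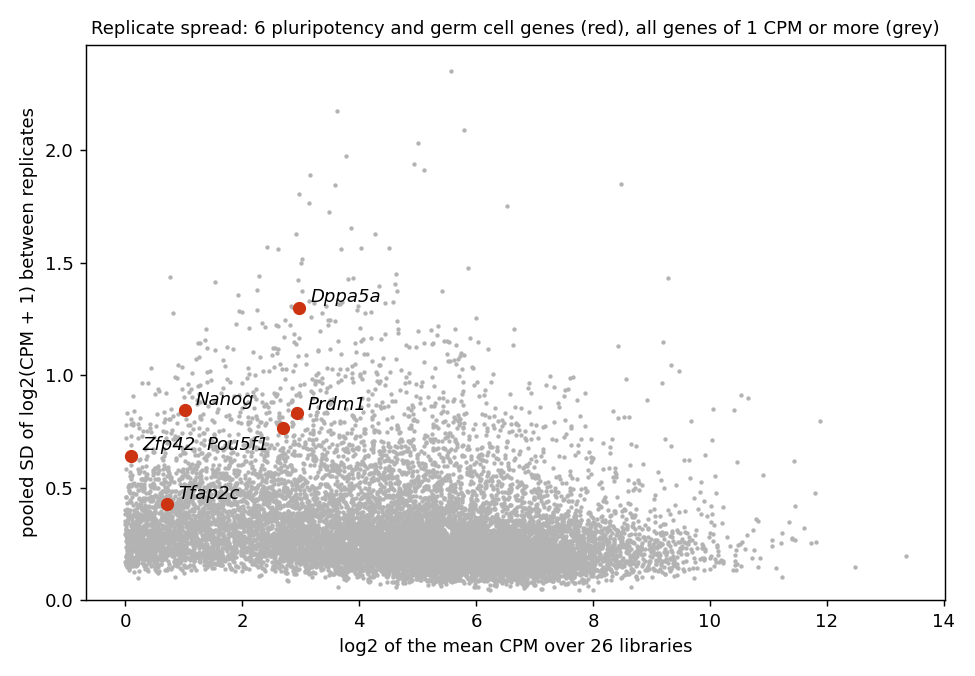
Pooled SD of log2(CPM + 1) between replicates (vertical axis) against log2 of the mean CPM over 26 libraries (horizontal axis). Grey points are the 13283 genes averaging 1 CPM or more, and red points are 6 of the genes described here, of which 4 lie above the 95 percentile of the grey points.

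Most of the genes scattered together. After the mean of each group was subtracted, the deviations of log2(CPM + 1) over the 18 libraries (11 degrees of freedom) had a Pearson r of 0.96 for Nanog with Zfp42, 0.94 for Dppa5a with Zfp42, 0.92 for Nanog with Dppa5a and 0.90 for Pou5f1 with Tfap2c. Without the InsDel5to10 libraries Dppa5a with Zfp42 was the closest of these pairs (0.95, against 0.94 for Nanog with Zfp42). Utf1, at lower counts, had r of 0.82 with Pou5f1 and 0.85 with Tfap2c but 0.45 with Nanog. Over the 10 pairs among Pou5f1, Nanog, Dppa5a, Tfap2c and Zfp42, r ran from 0.71 to 0.96, and without the InsDel5to10 libraries from 0.51 to 0.95. Prdm1 followed these 5 genes less, with r from 0.33 to 0.59, and from 0.10 to 0.46 without InsDel5to10. Its r of 0.53 with Dppa5a still stood at the 97.21 percentile of 13282 genes, whose median r was -0.00. With Pou5f1 its r of 0.44 stood at the 92.43 percentile, against a median of 0.03. Nanos3, with 19 counts at most, had r from -0.13 to 0.38 with the other 9 genes. The libraries are shared by all pairs, as are library totals and names, so these values are a description. Pou5f1 and Dppa5a parted in the InvClone1 libraries: the ISML_third ones lay above their group mean for Dppa5a and below it for Pou5f1, at 120h and at 144h.

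**Figure D3:**
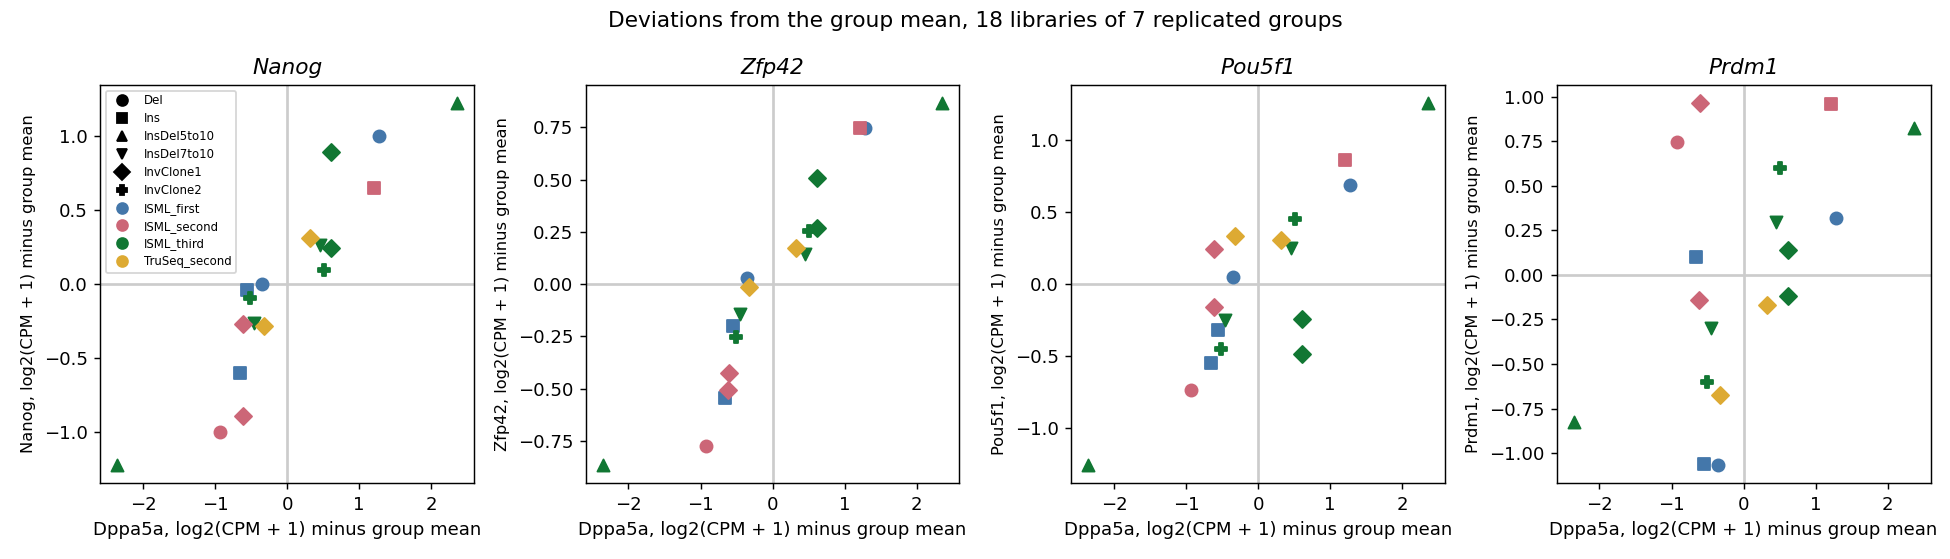
Deviation from the group mean of log2(CPM + 1) for Nanog, Zfp42, Pou5f1 and Prdm1 (vertical axes) against that of Dppa5a (horizontal axes) in 18 libraries of 7 replicated groups, with the shape for the line (InvClone1 includes its 120h and 144h groups) and the colour for the library name. Nanog and Zfp42 follow Dppa5a along a line (r of 0.92 and 0.94), Pou5f1 does so less closely (0.84), and Prdm1 more loosely than these (0.53).

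Across all 26 libraries and 13283 genes, the genes most like Pou5f1 in log2(CPM + 1) were Tdgf1 (r of 0.91), Ephx2 (0.89), L1td1 (0.87), Dennd2c (0.87) and Nanog (0.84). Tdgf1 encodes the Nodal co-receptor of the epiblast and L1td1 an RNA-binding protein of pluripotent cells. Those most like Dppa5a were Zfp42 (0.96), Nanog (0.95), L1td1 (0.94), the naive pluripotency factor Esrrb (0.90) and the long noncoding RNA Lncenc1 (0.88). Predicted gene models were left out, and stages and lines both enter these values.

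Further pluripotency genes were followed in a list of 20 core and naive genes. Of these, 17 were higher in InsDel5to10 replicate 2, 16 in InvClone2 replicate 2 and 3 in InsDel7to10 replicate 2, in the same direction as the 10 genes. Tdgf1 went from 0 to 3.52 CPM between the InsDel5to10 libraries, L1td1 from 0.05004 to 4.24 CPM and Esrrb from 1.00 to 4.76 CPM. Other genes of the list differed less: the naive factors Tfcp2l1 and Klf4 measured 3.10 and 4.93, and 2.10 and 1.97 CPM. Of the most abundant genes, Sall4 measured 223 and 204 CPM and Sox2, which is also a neural gene, 74.1 and 32.6 CPM in the same libraries. Fgf4, a growth factor of the epiblast and the primitive streak, measured 7.51 and 13.5 CPM. Within groups the r with Dppa5a was -0.20 for Sall4, -0.34 for Sox2 and -0.00 for Fgf4.

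In a list of 12 formative and primed genes, the abundant Lin28a, Dnmt3a and Lin28b also lay level, at 725 and 681, 204 and 247, and 223 and 186 CPM in the InsDel5to10 libraries. The Nodal pathway genes Lefty1 (0.1001 and 4.42 CPM) and Lefty2 (0.450 and 3.17 CPM) differed with the naive genes. Otx2 (0.1001 and 3.22 CPM), Fgf5 (0.3002 and 1.93 CPM) and Nodal (1.00 and 2.57 CPM) did so too. Of the 12 genes, 8 were higher and 4 lower in InsDel5to10 replicate 2, and likewise in InvClone2 replicate 2. In InsDel7to10 replicate 2, 4 were higher and 8 lower. Of 20 genes of primordial germ cells and later germ line, 15 were higher in InsDel5to10 replicate 2, but only 9 in InvClone2 replicate 2, where 10 were lower. In InsDel7to10 replicate 2, 5 of them were higher and 9 lower. Of the genes averaging 1 CPM or more, 52.2%, 49.5% and 49.2% were higher in replicate 2 of these lines, in the same order. The most abundant, Ifitm1, Kit and Elavl2, measured 206 and 193, 37.4 and 45.4, and 36.4 and 20.2 CPM in the InsDel5to10 libraries. Among genes of later germ cells, Tdrd5 reached 8.20 CPM, Tdrd9 4.67, Tex19.1 2.75, Stra8 2.58, Ddx4 1.24, Dazl 0.499 and Mael 0.453 CPM at most over the 26 libraries, and Nanos2 was at 0 in 22.

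Markers of other tissues moved between the same libraries. The summed level of 6 endothelial genes was 10.7 and 67.7 CPM in InsDel5to10, 9.60 and 105 CPM in InvClone2 and 39.9 and 7.20 CPM in InsDel7to10, and all 6 moved in the direction of the 10 genes in each pair. The sum of 10 definitive endoderm genes was 180 and 327 CPM in InsDel5to10, 144 and 221 CPM in InvClone2, and 140 and 116 CPM in InsDel7to10. Within groups over 18 libraries, Prdm1 had r of 0.75 with the endothelial sum and 0.72 with the endoderm sum. The same values were 0.58 and 0.44 for Tfap2c, 0.44 and 0.39 for Pou5f1 and 0.36 and 0.22 for Dppa5a. The surface ectoderm sum of 8 genes ran from 7.85 to 37.5 CPM over all libraries, with Krt14 at 0 in 25. Its within-group r was negative, at -0.37 with Pou5f1, -0.63 with Prdm1, -0.57 with Tfap2c and -0.39 with Dppa5a. The trophoblast sum of 6 genes ran from 0.143 to 3.65 CPM with Tpbpa at 0 in all 26. Its within-group r was 0.71 with Pou5f1, 0.68 with Prdm1, 0.66 with Tfap2c and 0.43 with Dppa5a. Eomes in this list, which is also a mesendoderm gene, had a within-group r of 0.92 with Pou5f1. The caudal epiblast and tailbud sum of 7 genes was 510 and 388 CPM in InsDel5to10. Within groups this sum had r of -0.23 with Pou5f1, -0.60 with Prdm1, -0.53 with Tfap2c and -0.50 with Dppa5a. The part of these tissues in the spread of the 10 genes was not tested.

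Del and Ins, which differ by Ins(CBS5-10), were compared at 120h with 3 libraries each. None of the 10 genes passed the test (edgeR quasi-likelihood, Benjamini-Hochberg adjusted p under 0.05 over 17769 genes), where 0.00563% of all genes did, 1 gene in all. With the replicate number as a block 2 genes passed, and none of the 10. At an unadjusted p under 0.05, 188 genes passed, and DESeq2 called 2, and none of the 10 passed in either. The log2 difference of Del minus Ins was -0.02 ± 0.89 (SE) for Pou5f1, 0.48 ± 1.48 for Dppa5a, 0.57 ± 1.36 for Nanog, 0.42 ± 1.35 for Zfp42, 0.82 ± 0.64 for Tfap2c and 0.07 ± 0.62 for Prdm1, each with an adjusted p of 1.

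The order of Del and Ins differed between the ISML_first and ISML_second libraries. In the ISML_first libraries (2 of each line) 8 of the 10 genes were higher in Del and 2 lower. In the ISML_second libraries (1 of each) 1 was higher in Del, 8 lower and 1 at 0 in both. Dppa5a averaged 7.13 CPM in Del and 2.10 CPM in Ins among the former and measured 1.67 and 9.95 CPM among the latter. Nanog averaged 2.50 and 0.618 CPM in the former and measured 0.163 and 2.11 CPM in the latter. The ISML_first means of Del rested mainly on Del replicate 2. Dppa5a measured 2.97 and 11.3 CPM in the ISML_first libraries of Del and 2.22 and 1.99 CPM in those of Ins. Nanog measured 1.33 and 3.67 CPM in Del and 0.929 and 0.306 CPM in Ins. All 9 genes with counts under both names had opposite signs under them, though Prdm1 and Nanos3 did so narrowly. Del over Ins was 1.16 and 0.870 for Prdm1 and 0.920 and 1.39 for Nanos3 in ISML_first and ISML_second. The share of all genes with opposite signs was not computed, so these counts are a description, and replicate spread and library name cannot be told apart here.

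InsDel7to10 and InsDel5to10 differ in which CBS elements were deleted after Ins(CBS5-10), and both have 2 ISML_third libraries at 120h. None of the 10 genes passed the test, where 0.253% of all genes did (45 genes). At an unadjusted p under 0.05, 1895 genes passed and 2 of the 10, Pou5f1 and Dppa5a. DESeq2 called 289 genes and 1 of the 10, Pou5f1, at -3.79 (adjusted p = 0.047). Of the 10, 9 were lower in InsDel7to10 and their median log2 difference was -3.43, against -0.00 over all genes. Pou5f1 averaged 0.322 and 4.35 CPM and differed by -3.80 ± 1.28 (SE, edgeR adjusted p = 0.334). The libraries of both lines did not overlap for 3 of the 10 genes, namely Pou5f1 and Prdm1, lower in InsDel7to10, and Nanos3, higher there (1.68 ± 1.01), which is near the 31.9% of all genes tested without overlap. These gaps were narrow. The nearest libraries of InsDel7to10 and InsDel5to10 had 10 and 12 counts for Pou5f1, 50 and 56 for Prdm1, and 4 and 3 for Nanos3. Dppa5a differed by -4.91 ± 2.00 (edgeR adjusted p = 0.419), Nanog by -3.60 ± 1.80 (0.516), Zfp42 by -3.70 ± 1.89 (0.525), Tfap2c by -1.71 ± 0.86 (0.514) and Prdm1 by -1.71 ± 0.82 (0.496). These means rest on InsDel5to10 replicate 2: InsDel5to10 replicate 1 had less Dppa5a, Nanog, Zfp42 and Tfap2c than InsDel7to10 replicate 1. Without InsDel5to10 replicate 2 the difference was 6.35 for Dppa5a, fitted against 0 counts, 1.02 for Nanog, 0.045 for Zfp42 and 0.35 for Tfap2c, and -0.94 for Pou5f1.

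InvClone2 and InsDel5to10 carry the inverted or the deleted CBS5-10 elements after Ins(CBS5-10), and the comparison shares the InsDel5to10 libraries with the previous one. None of the 10 genes passed the test, where 0.152% of all genes did (27 genes). Pou5f1, at 6.45 and 4.35 CPM on average, differed by 0.56 ± 0.96 (SE, edgeR adjusted p = 0.921), Dppa5a by 0.29 ± 1.49 (0.982), Nanog by 0.51 ± 1.35 (0.952) and Tfap2c by 1.34 ± 0.73 (0.771). Both InvClone2 libraries lay inside the range of the InsDel5to10 pair for Dppa5a, Nanog and Zfp42. At an unadjusted p under 0.05, 1161 genes passed and 1 of the 10, Nanos3 (2.64 ± 0.91), which rested on at most 3 counts in InsDel5to10. DESeq2 called 46 genes and none of the 10.

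Genes of the 3 lists gave no call either in these line comparisons. Of the 20 core and naive genes all were tested, of the 12 formative and primed genes all, and of the 20 germ line genes 17, and none passed over all genes in any of the 3 comparisons (edgeR). At an unadjusted p under 0.05, in the order Del against Ins, InsDel7to10 against InsDel5to10 and InvClone2 against InsDel5to10, 0, 7 and 0 core and naive genes passed, 0, 6 and 0 formative and primed genes, and 2, 4 and 0 germ line genes. Of all 17769 genes tested, 188, 1895 and 1161 passed in the same order. The median log2 difference of the core and naive list was 0.10 for Del minus Ins, -1.81 for InsDel7to10 minus InsDel5to10 and 0.49 for InvClone2 minus InsDel5to10, against medians of -0.00, -0.00 and 0.01 over all genes.

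The ISML_second libraries, 1 for each of 5 lines at 120h and at 144h, split the lines in the same way at both stages. At 120h Dppa5a measured 9.95 CPM in Ins and 6.45 CPM in InvClone1, but 1.67 CPM in Del, 0.7105 CPM in InsDel8to10 and 0.570 CPM in InvDel7to10. At 144h it measured 11.3, 11.8, 0.695, 1.55 and 2.07 CPM in the same lines. Pou5f1 did likewise, with 6.43 and 5.14 CPM in Ins and InvClone1 against 0.949 to 1.31 CPM in the other 3 lines at 120h, and 8.76 and 13.0 CPM against 0.593 to 1.93 CPM at 144h. Nanog, Zfp42, Utf1 and Prdm1 were also higher in these 2 lines without overlap at both stages, so 6 of the 10 were, against 2.76% of the 17769 genes tested (490 genes). Prdm1 did so narrowly at 144h, with 10.57 CPM in InvClone1 and 10.48 CPM in Del. The 2 lines were set apart after the values of these genes were seen, so the count is a description. With 1 library for a line and stage this split has no replicate check, and the ISML_first libraries of Ins lay low at 120h. The endothelial sum moved in part with this split: it was 138 and 165 CPM in Ins and InvClone1 and 88.6 to 150 CPM in the other 3 lines at 120h, where the ranges overlap, and 171 and 182 CPM against 97.9 to 118 CPM at 144h, where they do not. Its part in the split was not tested.

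Between 120h and 144h none of the 8 of these genes that passed the filter on low counts passed the test, where 15.1% of 16043 genes did, 2429 in all. Dppa3 and Prdm14 were not tested. At an unadjusted p under 0.05, 4608 genes passed and 1 of the 8, Tfap2c, and DESeq2 called 2610 genes and none of the 8. All 8 log2 differences were positive, with a median of 0.60 against -0.01 over all genes tested. Tfap2c came nearest: it measured 0.980, 1.55, 0.888, 1.70 and 1.09 CPM at 120h in Del, Ins, InsDel8to10, InvClone1 and InvDel7to10, and 1.52, 3.68, 1.09, 1.98 and 2.72 CPM at 144h. It was higher at 144h in all 5 lines, by 0.78 ± 0.23 on the log2 scale (SE, edgeR adjusted p = 0.054). Without the InvClone1 line, whose 144h library was the one low in mitochondrial counts, Tfap2c rose by 0.94 (edgeR adjusted p = 0.00762) and 4934 genes passed in place of 2429. With no filter on low counts its edgeR adjusted p was 0.0473. Leaving out any other line gave no call among these genes, and the Tfap2c difference was then as low as 0.64. Over all fits, with edgeR and DESeq2, its adjusted p ran from 0.00762 to 0.188.

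The other 7 genes had positive differences of varied size, none past the threshold. Dppa5a differed by 0.55 ± 0.35 (SE, edgeR adjusted p = 0.341), higher at 144h in 4 of 5 lines, Pou5f1 by 0.47 ± 0.32 (0.384) in 3 of 5, Nanog by 0.06 ± 0.38 (0.935) in 3 of 5 and Zfp42 by 0.73 ± 0.39 (0.265) in 5 of 5. Nanos3 differed by 0.77 ± 0.34 (SE, edgeR adjusted p = 0.183), higher in 5 of 5 lines but from few counts, and Utf1 by 0.64 ± 0.41 (0.347), higher in 4 of 5. Prdm1 was level, at 10.7 CPM on average at 144h and 10.96 CPM at 120h (0.01 ± 0.13, adjusted p = 0.969). Its SE was the smallest of the 8.

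**Figure D4:**
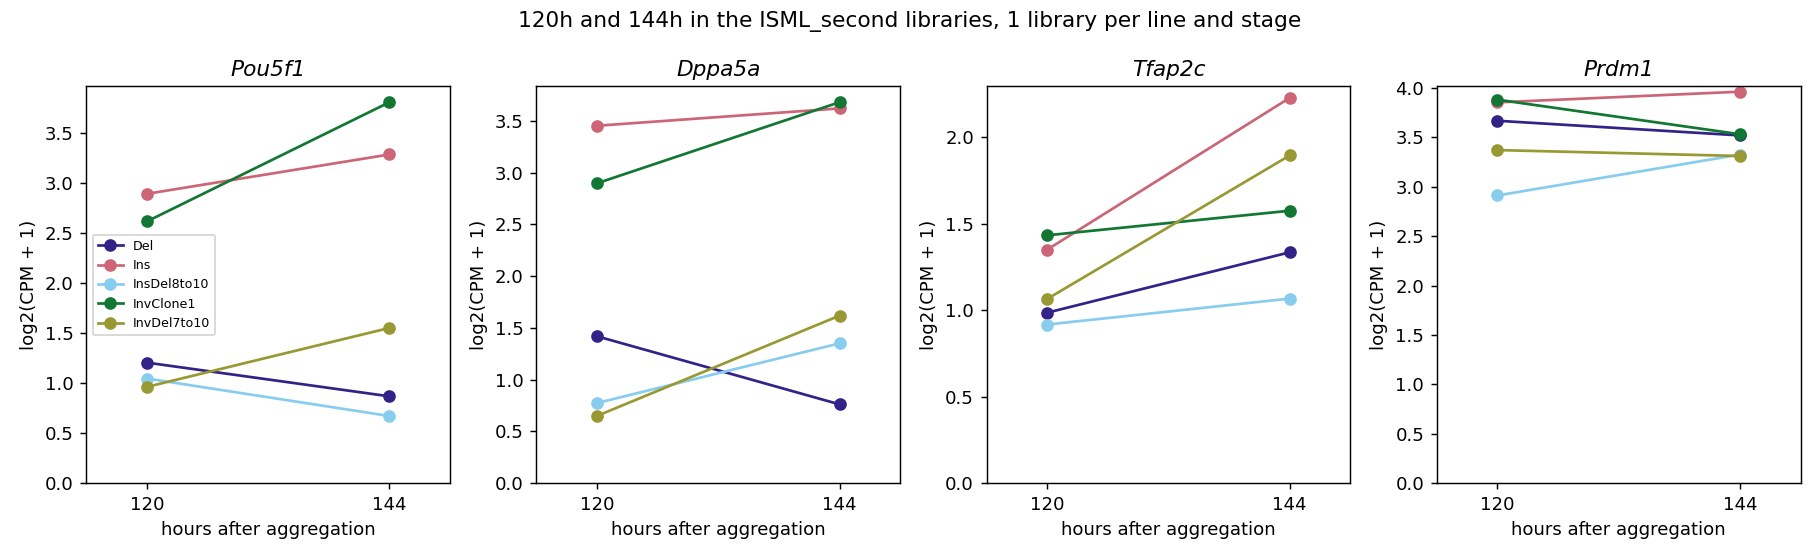
Pou5f1, Dppa5a, Tfap2c and Prdm1 as log2(CPM + 1) at 120h and 144h in the 10 ISML_second libraries, with a line joining the 2 stages of each of 5 lines. For Pou5f1 and Dppa5a, Ins and InvClone1 stay above Del, InsDel8to10 and InvDel7to10, and Tfap2c is higher at 144h in all 5 lines.

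Some genes of the lists changed between 120h and 144h, while abundant ones such as Sall4, Dnmt3a, Lin28b, Kit and Elavl2 did not pass the test. Among core and naive genes 1 rose and 1 fell of 18 tested: Sox2 went from 73.3 ± 11.1 to 219 ± 50.1 CPM (SD, n = 5 lines, log2 1.58, edgeR adjusted p = 3.38e-05) and Fgf4 from 5.29 ± 1.73 to 1.31 ± 1.26 CPM (-2.29, 0.00763). Among formative and primed genes 1 rose and 3 fell of 12: Fgf5, a growth factor of the primed epiblast, rose by 2.28, and the de novo methyltransferase Dnmt3b fell by 0.87, Zic2 by 0.95 and Lin28a, a repressor of let-7 processing, by 0.39. Among germ line genes none rose and 2 fell of 10, Ifitm1 (-1.38) and Alpl (-0.65), both of which are also expressed outside germ cells. All 7 caudal epiblast and tailbud markers fell, by a median of 1.64, with T (Brachyury) from 69.1 ± 11.1 to 20.2 ± 11.1 CPM (SD, n = 5 lines). Of the 10 definitive endoderm genes 4 rose (Cdh1, Foxa2, Krt8 and Krt18) and 2 fell (Cer1 and Sox17). Of 6 surface ectoderm genes tested Trp63 rose and Grhl3 fell, of the 6 endothelial genes Pecam1 rose and Tek fell, and of the trophoblast genes 1 was tested and did not pass.

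Only InvClone1 was followed over 4 stages in ISML_third libraries, 1 for each stage, so the course below has no replicate check under that name. Pou5f1 measured 64.5 CPM (95% Poisson interval 61.4 to 67.8) at 96h, 3.88 (3.09 to 4.80) at 120h, 9.005 (7.81 to 10.3) at 144h and 1.178 (0.811 to 1.65) at 168h. The 96h value was above all 25 later libraries of any line, of which the highest reached 13.0 CPM. Dppa5a measured 12.7, 16.3, 29.0 and 2.89 CPM and Zfp42 1.66, 1.99, 3.33 and 0.428 CPM at the same stages. Among the ISML_third libraries Pou5f1 at 120h was thus at 0.0601 times its 96h level (0.0477 to 0.0749). Dppa5a was 1.29 times as high (1.10 to 1.503) and Zfp42 1.19 times (0.759 to 1.88). InvClone1 replicates 2, 3 and 4 at 120h, under other library names, had 7.46, 7.63 and 5.14 CPM of Pou5f1, also below 96h. They had 13.2, 8.09 and 6.45 CPM of Dppa5a and 1.79, 1.45 and 0.849 CPM of Zfp42. For Dppa5a and Zfp42 replicate 2 lay above the 96h library and replicates 3 and 4 below it. Their direction thus depended on the 120h library, and the part of library name was not tested.

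Nanog took an intermediate course in the ISML_third libraries, with 5.89, 3.69, 6.56 and 0.714 CPM. All of these 4 genes were higher at 144h than at 120h, by 2.32 times for Pou5f1 (1.79 to 3.03), 1.78 for Nanog (1.35 to 2.36), 1.77 for Dppa5a (1.56 to 2.03) and 1.68 for Zfp42 (1.14 to 2.50). All 4 were then lower at 168h than at 144h, to 0.131, 0.109, 0.0996 and 0.129 times. In FPKM the ratio of Pou5f1 to Dppa5a was 2.33 at 96h and 0.132, 0.163 and 0.232 at 120h, 144h and 168h. Over the 23 later libraries with Dppa5a above 0, of all lines, it ran from 0.121 to 1.32 (median 0.390). The ratio of the 96h library was above all of these.

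Among the germ cell factors Prdm1 took another course. Prdm1 measured 2.64, 5.96, 13.1 and 8.46 CPM at 96h, 120h, 144h and 168h, 2.26 times higher at 120h than at 96h (1.66 to 3.09), the opposite direction to Pou5f1. Tfap2c measured 2.52, 1.48, 2.08 and 1.39 CPM, with a ratio of 0.587 (0.371 to 0.914) between 120h and 96h, close to the 0.628 (0.472 to 0.830) of Nanog. Nanos3 lay between 0.139 and 0.571 CPM. Dppa3 had 6, 10, 8 and 1 counts and Prdm14 11, 4, 5 and 0 counts. Of the list genes, 7 of 20 core and naive genes and 7 of 12 formative and primed genes were highest at 96h, and 9 and 2 were highest at 144h. The former include Fgf4 (48.0, 5.63, 2.40 and 0.214 CPM), Tdgf1 (7.59, 2.31, 1.91 and 0.393 CPM) and Lefty2 (9.17, 1.43, 2.04 and 0.0714 CPM), and the latter Esrrb (2.76, 2.59, 6.21 and 2.86 CPM) and Fgf5 (2.88, 0.462, 3.90 and 1.75 CPM). Markers of other tissues differed too between these libraries: the endothelial sum was 8.52, 47.6, 56.0 and 64.7 CPM, the endoderm sum 436, 151, 181 and 189 CPM, and the caudal epiblast and tailbud sum 827, 410, 104 and 38.7 CPM, and their part in the course was not tested.

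**Figure D5:**
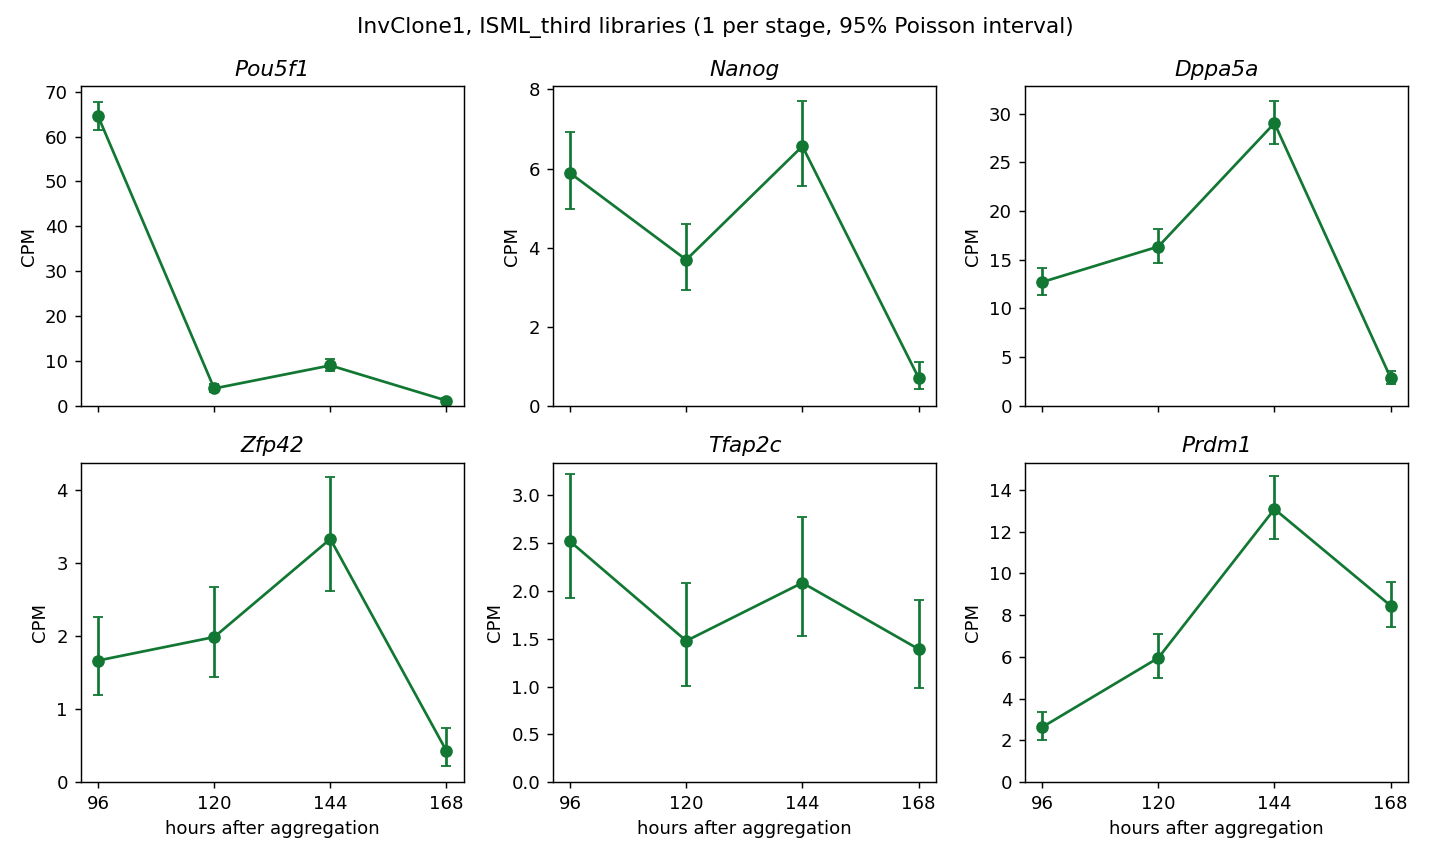
Pou5f1, Nanog, Dppa5a, Zfp42, Tfap2c and Prdm1 in CPM (vertical axes from 0) at 96h, 120h, 144h and 168h in InvClone1, 1 ISML_third library per stage, with bars for the 95% Poisson interval of each count. The 96h library is the highest for Pou5f1 by far (64.5 CPM, against 3.88 CPM at the next stage), Dppa5a peaks at 29.0 CPM at 144h, and Prdm1 goes from 2.64 to 13.1 CPM between 96h and 144h.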

How the data were processed

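Polyadenylated RNA of 26 gastruloid libraries in 15 groups was analysed, with line, stage and library name from the labels. The authors deposited whole-number counts per gene, not normalized, and FPKM from Cufflinks. The tools were Cufflinks 2.2.1, STAR 2.7.10a and cutadapt 1.18, with mm10, per the submitters' processing notes. The counting program is given only by the table's name, as HTSeq. Whether it used strand, and the release of the annotation, was not given in the sources used here, so overlapping or antisense genes are uncertain. Of the columns, 8 matched no sample and were not used.

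The test on counts was edgeR's quasi-likelihood F-test (version 4.0.16, R 4.3.3, TMM, minimum count of 10, Benjamini-Hochberg over all genes, threshold 0.05). Line comparisons came from a fit of all 26 libraries with terms for group and library name (17769 genes, 8 residual degrees of freedom), in which groups of 1 library borrow the spread of the other groups. With groups of 1 library the filter keeps a gene that is high in 1 library, and all 10 genes passed it. Stages were compared in the 10 ISML_second libraries with terms for line and stage (16043 genes, residual degrees of freedom 4). The test was checked on simulated counts with the same spread for every gene, no effect of library name, and changes only in well-counted genes. That check does not cover low genes that differ widely between replicates, such as many of those described here.

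CPM are counts scaled to the TMM-adjusted library total, and spreads use log2(CPM + 1). Without molecular identifiers, reads need not be independent molecules, and intervals and floors cover counting error only. Replicates may be technical, and p-values then measure only the spread between these samples. Pairs of replicates differed far beyond sampling noise (chi-square per degree of freedom at least 14.7), so none was counted as a repeat. Same-numbered Del and Ins libraries deviated together (r of 0.68, 0.55 and 0.86 over 9307 genes), with library names shared by number, so the pairing was used as a block in an alternative.

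The genes and lists were chosen with earlier results of these data known. Named were the 10 genes, the 3 most abundant genes of each list and those past the threshold, and the 5 genes most like Pou5f1 and Dppa5a. Eomes, Lefty1, Lefty2, Otx2, Nodal, Tdgf1, L1td1, Esrrb, Tfcp2l1, Klf4, Tdrd5, Tdrd9, Tex19.1, Stra8, Ddx4, Dazl, Mael, Nanos2, Krt14 and Tpbpa in the lists were named after their values were seen. Alternatives were DESeq2 1.42.0, its size factors, a minimum count of 50 or no filter at all, no term for library or line, the compared libraries alone with and without a replicate block, and leaving out each library or line. Leaving out the TruSeq_second libraries with the library low in mitochondrial counts, and a crossed block, were added after seeing the data. Promoter sequences are from RefSeq (GRCm38.p6).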

Additional observations from a re-analysis of the deposited data

Results flagged for a closer look

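Between 120h and 144h in the ISML_second libraries, 3 of the genes moved in opposite directions in different lines, each beyond its own 95% counting interval. Each ratio compares 1 library with 1 other, and the difference between lines was not tested. Dppa5a at 144h was 0.416 times its 120h level in Del (0.218 to 0.757), but 2.18 times in InsDel8to10 (1.17 to 4.24), 1.83 times in InvClone1 (1.49 to 2.25) and 3.64 times in InvDel7to10 (1.89 to 7.55). Nanog was at 0.5255 times in InvClone1 (0.310 to 0.864) and 2.75 times in InvDel7to10 (1.03 to 8.51). Prdm1 was at 1.38 times in InsDel8to10 (1.11 to 1.72) and 0.769 times in InvClone1 (0.644 to 0.916). The InvClone1 library at 144h is the one low in mitochondrial counts, and its part in these ratios was not tested. In the ISML_third pair of InvClone1, Nanog and Prdm1 were instead 1.78 and 2.197 times higher at 144h.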

How the results depend on the processing

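Over alternatives the number of genes past the threshold depended on the fit. For Del against Ins (1 gene) it was 0 with the compared libraries alone and no library term, 2 with the replicate block, 2 with DESeq2 and 89 with no filter. For InsDel7to10 against InsDel5to10 (45 genes) it was 7 with no library term, 4 with the compared libraries alone, 3 with the replicate block, 4 with the crossed replicate block, 289 with DESeq2 and 957 with no filter, and 3 to 939 when single libraries were left out, the lowest without InsDel5to10 replicate 1 and the highest without InsDel7to10 replicate 2. For InvClone2 against InsDel5to10 (27 genes) it was 6 with no library term, 46 with DESeq2, 383 with no filter, 932 with the replicate block, and 3 to 9 when single libraries were left out, the lowest without either InvClone2 library. The replicate numbers of the last 2 comparisons join 2 pairs each (r of -0.23 and 0.55) and are only a shared number. For 144h against 120h (2429 genes) it ran from 1424 (without InsDel8to10) to 4934 (without InvClone1) when a line was left out.

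None of the 10 genes passed in most fits. The exceptions in InsDel7to10 against InsDel5to10 were 1 gene with DESeq2 (Pou5f1, -3.79) and 6 genes with no filter, though the libraries of 4 of the 6 overlap. The others were 1 gene in InvClone2 against InsDel5to10 with the replicate block (Tfap2c, 1.55, adjusted p = 0.0339, 2 pairs) and 1 gene between stages with no filter or without InvClone1 (Tfap2c, 0 to 1 when a line was left out). The causes were not tested. Of 24 differences for the 6 most abundant genes, Prdm1 reversed outside left-out libraries, to -0.010 between stages with no line term and, for Del minus Ins, to -0.0087 with no library term and to -0.0060 with the compared libraries alone and no library term.

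When single libraries or lines were left out, 16 of the 24 changed sign in some fit. Del minus Ins ran from -0.73 to 1.75 for Dppa5a, -0.47 to 1.99 for Nanog, -0.57 to 0.99 for Pou5f1, -0.55 to 0.49 for Prdm1 and -0.66 to 2.15 for Zfp42. InsDel7to10 minus InsDel5to10 ran from -11.27 to 6.35 for Dppa5a, -8.98 to 1.02 for Nanog, -2.50 to 0.35 for Tfap2c and -8.10 to 0.045 for Zfp42. InvClone2 minus InsDel5to10 ran from -0.71 to 11.54 for Dppa5a, -0.44 to 5.13 for Nanog, -0.32 to 3.42 for Pou5f1, -1.11 to 1.08 for Prdm1 and -0.54 to 4.12 for Zfp42. Stages ran from -0.22 to 0.46 for Nanog and -0.10 to 0.090 for Prdm1. Fitted values against a library at 0 counts depend on the prior count. The median replicate SD of 0.80 was 1.26 with log2(CPM + 0.1), and 0.80 to 0.83 without each InvClone1 library. Without the TruSeq_second libraries and the library low in mitochondrial counts, a choice made after seeing the data, 1, 53 and 27 genes passed in the 3 line comparisons and none of the 10. Depth limits Dppa3, Prdm14 and Nanos3 most, with at most 19 counts.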
